A study of Mus musculus with 4 samples.

Results

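The Maf family factors were examined as all probe sets of the array annotated to Maf, Maff, Mafg or Mafk alone. These were 10 of 45101 probe sets, and 4 of 18194 genes with a symbol of their own. The genes were selected on the same GFP+ against GFP- difference that is described here, because Maf was known as one of the strongest genes of the GFP+ cells. Their values are therefore given as a description, without a test. Rax::GFP+ cells (2 arrays) were set against Rax::GFP- cells (2 arrays). Both came from mouse embryonic stem cells of one Rax::eGFP reporter line, differentiated to day 4.5 in SFEBq culture, a serum-free floating culture of quickly reaggregated cell clumps, and both were separated from the same kind of aggregates by FACS. RNA of each group was pooled from many aggregates in each experiment and hybridised to Affymetrix whole-genome mouse arrays, and the arrays of a group are described as biological duplicates. GFP marks cells that switched on Rax, an eye field and rostral forebrain gene, and the GFP- group was sorted for the lack of GFP and is therefore no single cell type, with presumptive caudal cells in it. All differences below are GFP+ minus GFP- on the log2 scale, so that a positive value means higher in GFP+ cells.

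Maf factors are basic leucine zipper proteins that bind DNA as dimers. The large factors, Maf among them, carry an activation domain, and Maf is known in the mouse for switching on crystallin genes in lens fibre cells and for its roles in macrophages and T cells. The small factors Maff, Mafg and Mafk lack that domain. They repress as homodimers, and they bind antioxidant response elements together with a CNC or Bach partner, which decides whether the gene is switched on or off. In the mouse, Mafg is itself a known target of such dimers.

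The sort gene Rax was 10.70 and 10.86 on the GFP+ arrays, against 8.58 and 8.88 on the GFP- arrays, a difference of 2.05, which the sort on its reporter sets. At a limma adjusted p under 0.05, 2.63% of all genes were called higher in GFP+ cells and 5.4% lower. Called higher were 7 of 9 measured forebrain and eye field markers, Rax among them, and 5 of 10 early neural markers. Pax6 is in both lists and counts in each. The difference was above 0 for 9 of 9 and 9 of 10 genes, and no marker of either list was called lower. Called lower in GFP+ cells were 8 of 10 pluripotent cell markers, 8 of 10 endoderm markers and 4 of 9 midbrain and hindbrain markers. Of the midbrain and hindbrain markers, 8 differences were below 0 and 1 was above 0, at 1.42, which was not called. The summed linear signal of the pluripotent markers was 1806 to 1852 in GFP+ cells and 10886 to 11405 in GFP- cells, and that of the endoderm markers was 745 to 1085 in GFP+ cells and 4323 to 4950 in GFP- cells. The part of this difference in cell make-up in the values below was not tested. In such bulk samples, fewer cells of a type and less RNA per cell cannot be told apart.

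The promoters of 3 small Maf genes carried the letters TGACNNNGC, the core of the antioxidant response element, and their stretches are shown because these genes are members. The windows reach from 250 bases before to 50 bases after the RefSeq start of a gene, on build GRCm38.p6, and both strands were searched. The letters were present in 12.4% of 32851 windows of this length. They were found in 3 of 5 windows of the small Maf genes, and the Maff match lies in 1 of its 3 windows. Maf was not among the promoters used here. Each stretch is given 5′ to 3′ in the direction of the gene, with the match, or its reverse complement where it was on the opposite strand, in capitals.
Mafg, chr11:120633741-120633789, minus strand: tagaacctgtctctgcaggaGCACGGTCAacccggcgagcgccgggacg
Mafk, chr5:139791503-139791551, plus strand: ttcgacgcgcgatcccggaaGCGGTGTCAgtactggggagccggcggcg
Maff, chr15:79346489-79346537, plus strand: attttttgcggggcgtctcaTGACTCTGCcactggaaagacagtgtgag

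The same letters are shown for the partner and the antioxidant genes that passed the test and carried a match, which are described further below. One of 9 windows of the CNC and Bach genes and 7 of 22 windows of the antioxidant response genes held them (11.1% and 31.8%). They were also in 8 of 15 crystallin windows (53.3%), so that they were not particular to the antioxidant genes. The match of Me1 lies in 1 of its 2 windows.
Nfe2l2, chr2:75704875-75704913, minus strand: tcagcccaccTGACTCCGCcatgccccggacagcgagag
Gclm, chr3:122245403-122245451, plus strand: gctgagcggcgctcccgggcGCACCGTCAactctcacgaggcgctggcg
Me1, chr9:86695892-86695940, minus strand: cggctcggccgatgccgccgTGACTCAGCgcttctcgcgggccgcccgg

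The letters TGCTGA, a half-site of the Maf recognition element, were searched in the same way and were present in 19.5% of all windows. They were found in 10 of 15 crystallin windows (66.7%), 4 of 9 CNC and Bach windows (44.4%) and 2 of 22 antioxidant response windows (9.09%). Stretches of Cryaa and Crybb3 are shown as examples, because crystallins are the textbook targets of Maf. The other crystallin matches are not shown. In capitals is TGCTGA, or its reverse complement where the match was on the opposite strand. A match is a stretch of letters and not a bound site.
Cryaa, chr17:31677803-31677848, plus strand: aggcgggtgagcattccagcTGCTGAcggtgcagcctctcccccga
Crybb3, chr5:113081626-113081671, minus strand: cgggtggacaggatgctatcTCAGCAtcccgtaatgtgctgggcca

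Maf, the large factor of the set, was higher in GFP+ cells at 5 of its 6 probe sets. At its most expressed probe set, 1456060_at, Maf was 10.64 and 10.91 in GFP+ cells, against 8.26 and 8.51 in GFP- cells. The groups lay far apart, with each GFP+ array above each GFP- array by 2.13 to 2.65. The difference was 2.39 with a standard error of 0.14, a 5.24-fold higher level in GFP+ cells. On the arrays themselves this probe set stood at the 92.5th and 93.7th percentile of all probe sets in GFP+ cells, against the 75.0th and 76.9th in GFP- cells, so that its signal was in the upper part of the arrays in both groups. Leaving out any 1 array moved the difference between 2.25 and 2.53.

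The other Maf probe sets gave smaller differences, and 1 gave none. On the GFP- arrays they stood lower, between the 15.9th and the 48.9th percentile of all probe sets. The probe set without a difference, 1447945_at, stood between the 44.5th and the 46.6th percentile on all 4 arrays. The probe set 1447849_s_at, which is shared between transcripts, was 7.28 and 7.51 in GFP+ cells, against 5.09 and 5.58 in GFP- cells, a difference of 2.06 (SE 0.19). The probe set 1435828_at was 5.78 and 6.05 in GFP+ cells, against 4.30 and 4.50 in GFP- cells, a difference of 1.51 (SE 0.13). At both, the lowest GFP+ array was above the highest GFP- array. The probe set 1437473_at was 6.83 and 7.15 in GFP+ cells, against 5.76 and 5.73 in GFP- cells, a difference of 1.25 (SE 0.13). The probe set 1444073_at was 5.48 and 4.94 in GFP+ cells, against 3.73 and 4.17 in GFP- cells, a difference of 1.26 with the widest standard error of the Maf probe sets (0.24). Its GFP+ arrays were the most uneven of the Maf probe sets, though the groups still did not overlap. The probe set 1447945_at was 5.49 and 5.64 in GFP+ cells, against 5.61 and 5.48 in GFP- cells, so that the groups overlapped and the difference was 0.02 (SE 0.10). The median over the 6 probe sets was 1.39.

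**Figure D1:**
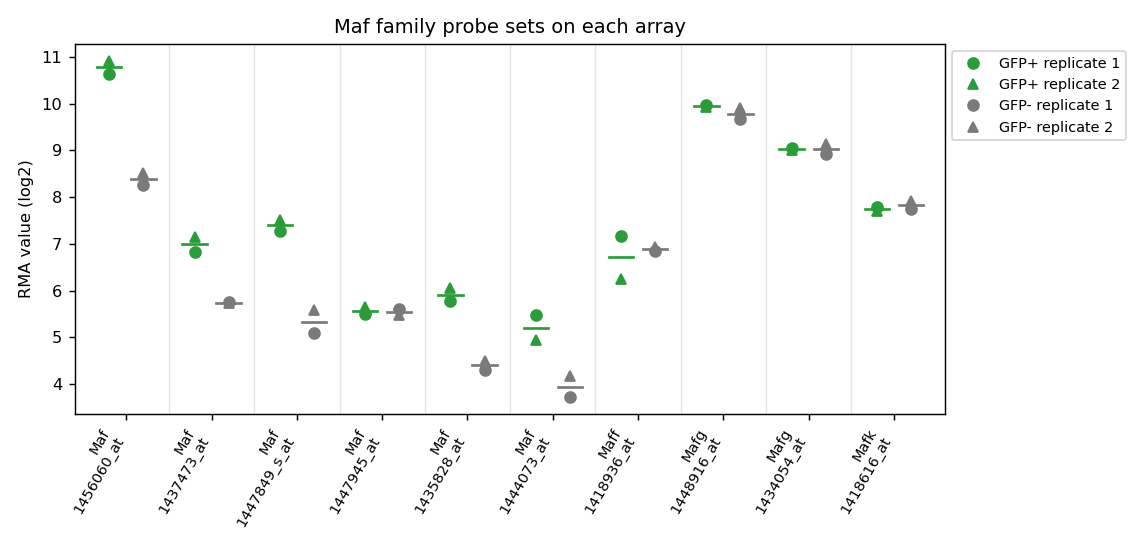
RMA values (log2, vertical axis) of the 10 Maf family probe sets on each of the 4 arrays, with GFP+ in green left of GFP- in grey, circles for replicate 1, triangles for replicate 2 and bars for group means of 2 arrays. 5 of the 6 Maf probe sets separate the groups, with Maf 1456060_at at 10.64 and 10.91 in GFP+ cells against 8.26 and 8.51 in GFP- cells, while Maff, Mafk and 1 Mafg probe set overlap.

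Mafg, the small factor with 2 probe sets, differed little between the groups. At 1448916_at it was 9.96 and 9.92 in GFP+ cells, against 9.66 and 9.90 in GFP- cells, a difference of 0.16 (SE 0.11). The groups were apart there by no more than 0.016 between the nearest arrays, and the difference moved between 0.04 and 0.28 as single arrays were left out. At 1434054_at Mafg was 9.05 and 9.01 in GFP+ cells, against 8.92 and 9.13 in GFP- cells. The GFP+ arrays lay between the GFP- arrays, with a difference of 0.00 (SE 0.10).

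Mafk, a small factor known as the partner of Nfe2 at globin genes, was 7.78 and 7.71 in GFP+ cells, against 7.74 and 7.92 in GFP- cells. The groups overlapped, and the difference of -0.09 (SE 0.09) lay between -0.18 and 0.003 without single arrays. Maff, the small factor known to be induced by stress and inflammatory signals, was 7.17 and 6.25 in GFP+ cells, against 6.85 and 6.93 in GFP- cells. The difference was -0.18 (SE 0.31). Both the highest and the lowest Maff value came from GFP+ cells, whose SD was 0.65, against 0.055 in GFP- cells. The direction rested on 1 array: the Maff difference was -0.64 without GFP+ replicate 1 and 0.28 without GFP+ replicate 2.

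**Figure D2:**
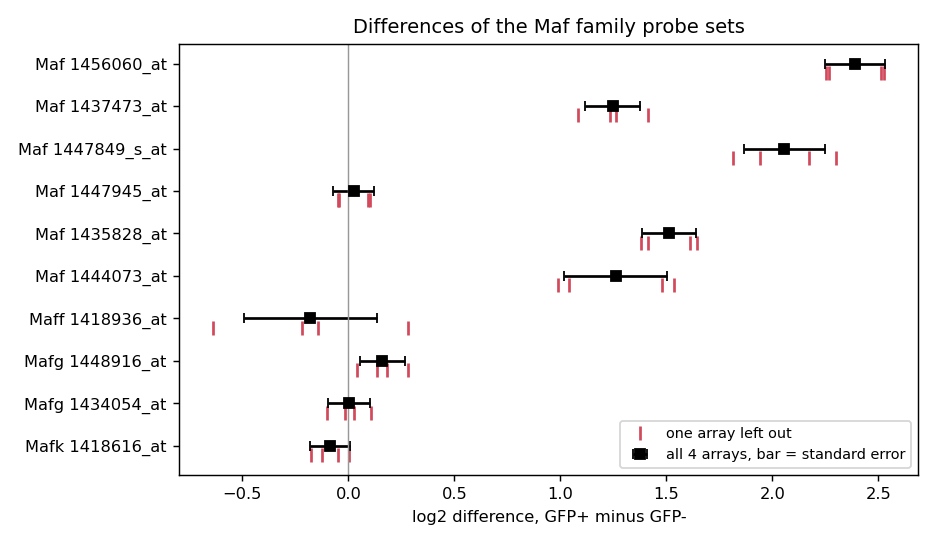
Log2 difference of GFP+ minus GFP- (horizontal axis) for each Maf family probe set, with squares for all 4 arrays, bars for the standard error and red ticks for the difference with 1 array left out. The Maf differences run between 0.02 and 2.39, and the ticks of Maff and Mafk lie on both sides of 0.

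Over the 10 probe sets, 8 differences were above 0, and the groups did not overlap at 6, all of them higher in GFP+ cells. Across the whole array, the groups did not overlap at 57.3% of probe sets. A difference of over 2-fold toward GFP+ was present at 5 member probe sets, all of Maf, beside 2.68% of all probe sets. Since the genes were selected on this contrast, nothing is read from these counts and no test is given for them. Over the whole array, limma called 3.82% of probe sets higher in GFP+ cells and 7.47% in either direction. With genes taken by their most expressed probe set and ordered by their difference, Maf was at rank 5 of 18194 toward GFP+, Mafg at rank 2592, Mafk at rank 10471 and Maff at rank 13589.

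**Figure D3:**
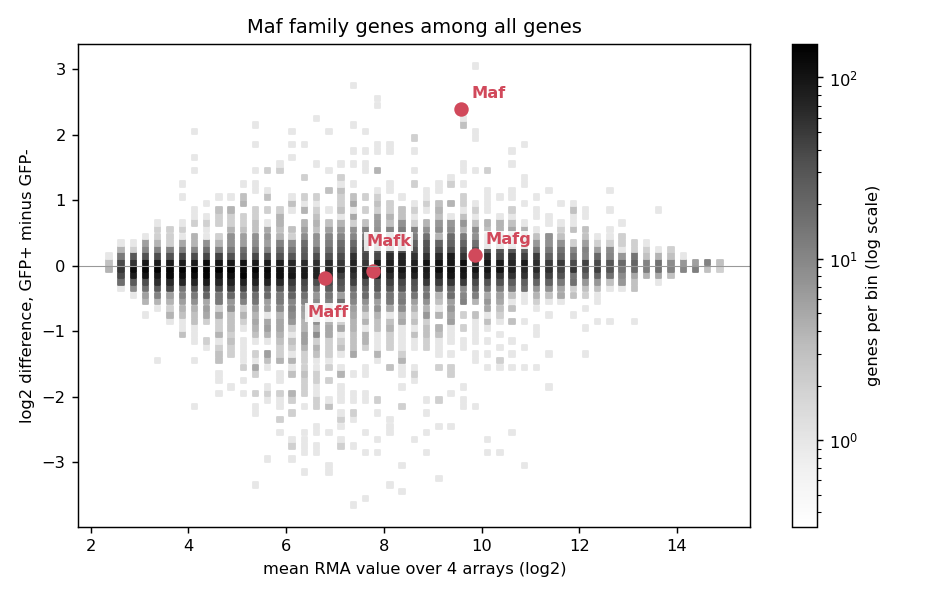
Log2 difference of GFP+ minus GFP- (vertical axis) against the mean RMA value over 4 arrays (log2, horizontal axis), with 18194 genes by their most expressed probe set counted in grey bins and the 4 Maf family genes as red points. Maf lies near the upper edge at 2.39, and Mafg (0.16), Mafk (-0.09) and Maff (-0.18) lie within the dense band around 0.

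The 5 genes whose profile over the 4 arrays was nearest to that of Maf were Sox6, Pcdh17, S1pr3, Col1a2 and Rax. Likeness was the Euclidean distance between the 4 values after each probe set's mean was subtracted. Sox6, a SoxD transcription factor, was nearest at a distance of 0.152. It was 8.96 and 9.06 in GFP+ cells, against 6.48 and 6.64 in GFP- cells. Pcdh17, a protocadherin, followed at 0.200 with 9.05 and 9.20 in GFP+ cells, against 6.46 and 6.67 in GFP- cells. Each of them was, like Maf, clearly apart between the groups. S1pr3, a sphingosine-1-phosphate receptor, was at 0.273 with a difference of 2.17, and Col1a2, a chain of type I collagen, at 0.332 with a difference of 2.15. Rax, whose reporter set the sort, was at 0.350. With 4 arrays in 2 groups, any gene with a difference of like size and a small spread comes out near Maf by this measure.

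Nrl, a large Maf factor known from rod photoreceptors, was 3.20 and 3.97 in GFP+ cells, against 3.99 and 3.94 in GFP- cells, near the low end of the arrays. The difference of -0.38 (SE 0.27) did not pass the test (limma adjusted p = 0.436), but it was -0.77 without GFP+ replicate 2 and then passed (adjusted p = 0.0369).

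The CNC and Bach factors, the partners of the small Mafs, were all 6 measured, and 1 was higher and 1 lower in GFP+ cells. Among all genes, 2.63% were called higher and 5.4% lower. At an unadjusted p under 0.05, which is given for the lists below, the shares of all genes were 9.14% higher and 16.7% lower. Their median difference was -0.10, beside -0.05 over all genes. Nfe2l2 (also Nrf2), the activator of the antioxidant response, was 9.21 and 9.01 in GFP+ cells, against 10.05 and 10.07 in GFP- cells. The difference was -0.95 (SE 0.10, limma adjusted p = 0.0171), and both GFP+ arrays were below both GFP- arrays. A second and less expressed Nfe2l2 probe set did not pass, with a difference of 0.10 (adjusted p = 0.580). With 1 array left out, the Nfe2l2 difference stayed between -1.05 and -0.85. Nfe2l2 kept its call without either GFP+ array. Without either GFP- array limma called no probe set of the whole array, and the adjusted p of Nfe2l2 was then 0.152 and 0.140.

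Bach2, a repressor that binds the same elements and is known for its role in lymphocytes, was 9.05 and 9.14 in GFP+ cells, against 8.28 and 8.44 in GFP- cells. The difference was 0.74 (SE 0.09, limma adjusted p = 0.0250), with both GFP+ arrays above both GFP- arrays. Its other probe sets did not pass, with differences of 0.41 (adjusted p = 0.295) and 0.18 (adjusted p = 0.477). The difference stayed between 0.66 and 0.82 with 1 array left out. It no longer passed without GFP+ replicate 1 (adjusted p = 0.0818) or GFP+ replicate 2 (0.0642), nor without GFP- replicate 1 (0.169) or GFP- replicate 2 (0.128), where no probe set was called.

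The other 4 partners did not pass the limma test. Bach1, the heme-sensing repressor, was 10.73 on both GFP+ arrays, against 10.98 and 11.04 on the GFP- arrays, a difference of -0.28 (adjusted p = 0.0941). Nfe2l1, the activator of proteasome genes, was 9.89 and 9.88 in GFP+ cells, against 10.01 and 10.06 in GFP- cells, a difference of -0.15 (adjusted p = 0.282). In both, the GFP+ arrays were the lower ones without overlap. Nfe2l3 was 5.94 and 6.09 in GFP+ cells, against 5.96 and 6.16 in GFP- cells (-0.04, adjusted p = 0.859). Nfe2, the erythroid partner, was 4.01 and 3.94 in GFP+ cells, against 3.95 and 4.10 in GFP- cells (-0.05, adjusted p = 0.769). The groups overlapped for both of these genes.

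**Figure D4:**
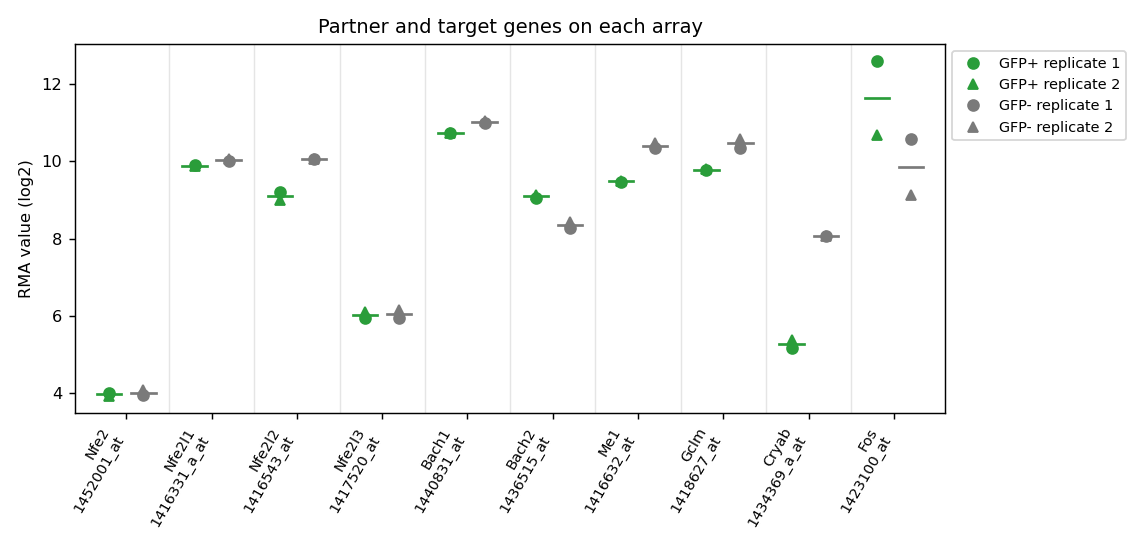
RMA values (log2, vertical axis) of the 6 CNC and Bach partners and of Me1, Gclm, Cryab and Fos at their most expressed probe sets, with GFP+ in green left of GFP- in grey, circles for replicate 1, triangles for replicate 2 and bars for group means of 2 arrays. Nfe2l2, Me1, Gclm and Cryab lie lower and Bach2 higher in GFP+ cells, and the GFP+ arrays of Fos stand at 12.60 and 10.69.

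The Keap1 complex marks Nfe2l2 for degradation. None of 6 listed genes, of this complex or otherwise of Nfe2l2 turnover, passed the test at its most expressed probe set. At an unadjusted limma p under 0.05, 2 were higher and 2 lower, beside 9.14% and 16.7% of all genes. These genes are named after their values were seen. The higher ones were Rbx1 (0.84, adjusted p = 0.0712) and Keap1 (0.29, adjusted p = 0.111). The lower ones were Sqstm1 (-0.62, adjusted p = 0.0703) and Btrc. A second, less expressed probe set gave -0.12 for Keap1 (adjusted p = 0.512) and -0.01 for Sqstm1 (adjusted p = 0.974). The median difference of the 6 listed genes was -0.01. Cul3, the scaffold of the ligase, differed by 0.01 (adjusted p = 0.926). Gsk3b, a kinase that also promotes Nfe2l2 turnover, differed by -0.04 (adjusted p = 0.857) at the most expressed of its 6 probe sets. At 2 less expressed Gsk3b probe sets the difference was 1.35 (adjusted p = 0.0485) and 1.60 (adjusted p = 0.0360), so that the probe sets of this gene disagreed. Btrc, another ligase subunit that acts on Nfe2l2 and was named after its values were seen, had a difference of -0.31 at the most expressed of its 5 probe sets (adjusted p = 0.137). It was lower at 2 less expressed ones, by differences of -0.59 (adjusted p = 0.0324) and -0.47 (adjusted p = 0.0436).

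Of 17 measured antioxidant response genes, known targets of Nfe2l2 with a small Maf, 2 were lower in GFP+ cells and none was higher. At an unadjusted limma p under 0.05, 9 were lower and none higher, beside 16.7% and 9.14% of all genes. The difference was below 0 for 16 of 17 genes, with a median of -0.25, beside -0.05 over all genes. Me1, the malic enzyme that supplies NADPH, was 9.47 and 9.49 in GFP+ cells, against 10.35 and 10.46 in GFP- cells. The difference was -0.93 (SE 0.08, adjusted p = 0.0124), and a second probe set gave -0.97 (adjusted p = 0.0136). Gclm, the modifier subunit of the enzyme that starts glutathione synthesis, was 9.76 and 9.80 in GFP+ cells, against 10.35 and 10.58 in GFP- cells. The difference was -0.69 (SE 0.10, adjusted p = 0.0361), and a second probe set gave -0.50 (adjusted p = 0.0424). For both genes the GFP+ arrays were the lower ones without overlap.

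With 1 array left out, the Me1 difference stayed between -0.98 and -0.87 and the Gclm difference between -0.80 and -0.57. Me1 kept its call without GFP+ replicate 2 and missed the threshold without GFP+ replicate 1 (adjusted p = 0.0572). Gclm missed it without GFP+ replicate 1 (adjusted p = 0.132) and without GFP+ replicate 2 (0.0812). Without either GFP- array, where no probe set was called, the adjusted p was 0.117 each for Me1 and 0.134 and 0.161 for Gclm. Tkt of the pentose phosphate pathway (-0.02, adjusted p = 0.912) and the thioredoxin gene Txn1 (-0.01, adjusted p = 0.974), the most expressed genes of the list that did not pass, were nearly level between the groups. As given above, pluripotent and endoderm markers were also lower in GFP+ cells, and their part in the Me1, Gclm and Nfe2l2 values was not tested.

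The proteasome subunit genes, the known targets of Nfe2l1, gave no call among 31 measured, with 2 lower and none higher at an unadjusted limma p under 0.05, beside the shares of all genes given above. Their differences lay between -0.27 and 0.24 with a median of -0.03. Psma3 differed by -0.03 (adjusted p = 0.845) and Psma2 by 0.03 (adjusted p = 0.865).

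Of 14 measured crystallin genes, the lens targets of large Maf factors, 1 was lower in GFP+ cells and none was higher, with a median difference of -0.09. At an unadjusted limma p under 0.05, 2 were higher and 2 lower, beside 9.14% and 16.7% of all genes. The mean log2 level of the 14 genes was 5.06 to 5.17 in GFP+ cells and 5.31 to 5.35 in GFP- cells, below the array medians of 5.84 to 5.89. The gene called lower was Cryab, a small heat shock protein that many tissues outside the lens also express. It was 5.17 and 5.39 in GFP+ cells, against 8.06 and 8.07 in GFP- cells, a difference of -2.78 (SE 0.10, adjusted p = 0.00551). Another Cryab probe set gave -1.63 (adjusted p = 0.0189), and the last, with a plain _at suffix, gave -0.19 (adjusted p = 0.300). With 1 array left out, the difference stayed between -2.89 and -2.68. Cryab kept its call without either GFP+ array, and its adjusted p was 0.0937 and 0.105 without a GFP- array, where no probe set was called. Crybb3, whose promoter stretch is shown above, was 6.86 and 7.12 in GFP+ cells, against 7.15 and 7.02 in GFP- cells (-0.10, adjusted p = 0.650). Cryba1 differed by 0.49 (adjusted p = 0.133) and Cryaa, named for its promoter stretch, by 0.06 (adjusted p = 0.712).

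Markers of other cells that use Maf factors were compared as whole lists, and their unadjusted counts stand beside 9.14% of all genes higher and 16.7% lower. None of 9 lens placode and lens fibre markers passed the limma test, with 2 higher at an unadjusted p under 0.05. Their summed linear signal was 431 to 491 in GFP+ cells and 390 to 408 in GFP- cells. Their mean log2 level was 5.26 to 5.44 in GFP+ cells and 5.26 to 5.27 in GFP- cells, below the array medians of 5.84 to 5.89. The lens membrane gene Mip, picked after its values were seen, was higher at a less expressed probe set (0.69, adjusted p = 0.0185) and did not pass at its most expressed one (0.65, adjusted p = 0.0573). None of 10 macrophage and microglia markers passed, with 3 lower at an unadjusted p under 0.05. Their mean log2 level was 4.64 to 4.71 in GFP+ cells and 4.79 to 4.85 in GFP- cells, which is below the array medians of 5.84 to 5.89. None of 9 erythroid markers passed, with 2 lower at an unadjusted p under 0.05. Their mean log2 level, 4.93 to 5.01 in GFP+ cells and 5.04 to 5.07 in GFP- cells, was also below those medians.

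Fos, Jun and related zipper factors, with which Maf proteins can also pair, gave no call among 10 genes and none at an unadjusted limma p under 0.05. Fos, an immediate early gene, was 12.60 and 10.69 in GFP+ cells, against 10.58 and 9.13 in GFP- cells, a difference of 1.79 (adjusted p = 0.248). GFP+ replicate 1 was the highest array for Fos, and it was also the highest for Maff. On the GFP- arrays the order was not shared, with Fos at 10.58 and 9.13 and Maff at 6.85 and 6.93. The summed linear signal of the 10 genes was 3508 to 8998 in GFP+ cells and 2344 to 3435 in GFP- cells. Without GFP+ replicate 2, Fosb, named after its values were seen, was called higher with a difference of 2.75 (adjusted p = 0.0197). Jund differed by 0.10 (adjusted p = 0.534). The part of these genes in the spread of Maff was not tested.

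**Figure D5:**
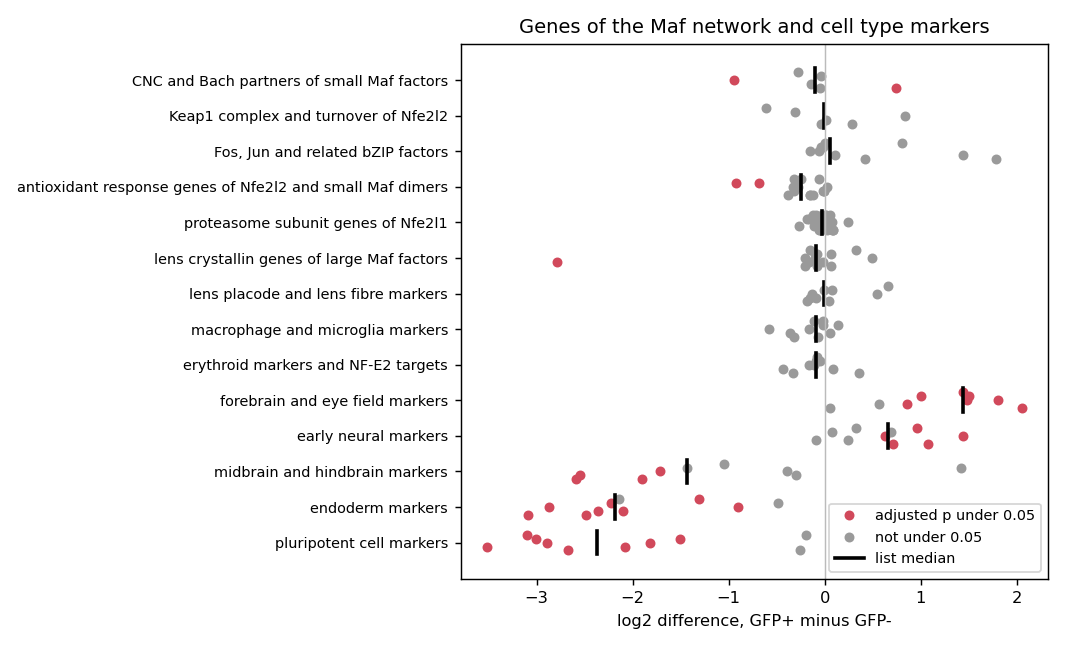
Log2 difference of GFP+ minus GFP- (horizontal axis) for each measured gene of 14 lists at its most expressed probe set, with red points for a limma adjusted p under 0.05, grey points for the others and black bars for list medians. The antioxidant response genes have a median of -0.25 with 2 genes called, and the proteasome genes stay between -0.27 and 0.24.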

How the data were processed

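Per the labels and the submitters' processing notes, the authors hybridised 4 arrays, normalised them with RMA in R 2.13.0, and deposited log2 values for 45101 probe sets. Because RMA equalises the distributions of the arrays, unequal total RNA would leave no trace. Probe sets were named from the platform annotation (34958 with 1 symbol, 932 with several, 9211 unnamed), and a gene was read at its most expressed probe set. Groups were compared with limma 3.58.1 in R 4.3.3 without a block, with 2 residual and 2.52 prior degrees of freedom and Benjamini-Hochberg adjustment over all 45101 probe sets, after a test on simulated data. All p-values are two-sided and weigh a difference against the spread between the 2 arrays of each group, moderated over all probe sets. Since each array holds RNA pooled from many aggregates, the spread between single aggregates does not enter. The smallest p that an exact permutation test allows with these arrays is 0.333.

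Members and lists (172 entries in 15 lists) were chosen with earlier results of these data known. Named were all members, other large Mafs and CNC and Bach genes, and of each other list up to 4 called genes and 2 most expressed uncalled ones, the 5 nearest profiles and Rax. Promoter sequences are from RefSeq GRCm38.p6: 3 of 4 members matched. Alternatives were each array left out, the replicate number as a block, Storey q-values, an intensity trend, a filter on dim probe sets (log2 above 5 on at least 2 arrays), quantile normalisation or median centring, the mean of a gene's probe sets and _at probe sets alone.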

Additional observations from a re-analysis of the deposited data

How the results depend on the processing

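With 2 arrays a group, precision is limited by the number of arrays, and the number of calls moved with the arrays kept. Over the whole array 3367 probe sets were called, against 0 to 2978 with 1 array left out, 820 of them without GFP+ replicate 1 and 0 without either GFP- array (7704 and 7697 at an unadjusted p under 0.05). The arrays of the 2 groups share replicate numbers, the sources used here do not say whether a number marks a shared sort (correlation of same-numbered deviations -0.05), and with the replicate block 0 were called (11019 at an unadjusted p under 0.05). Storey q-values called 6134 (3239 higher and 2895 lower in GFP+ cells) and an intensity trend 6962 (3732 higher and 3230 lower), against 1725 higher and 1642 lower in the limma test.

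The Maf difference was 1.42 as the mean of its 6 probe sets, against 2.39 at the most expressed one. The antioxidant response list (2 called) had 0 with the replicate block, 4 with Storey q-values, the filter or the mean of probe sets, 7 with the trend, and 0 to 1 with 1 array left out. The CNC and Bach list (2) had 0 with the block, 1 with the mean and 0 to 1 with 1 array left out. The crystallins (1) had 0 with the block, 0 with _at probe sets alone and 0 to 1 with 1 array left out. The Keap1 list (0) had 2 with Storey q-values, 3 with the trend and 2 with the mean. The proteasome list (0) had 1 with the trend and 1 with the mean. Nrl, and 1 Fos and Jun gene, were called only with an array left out (0 to 1 each). Quantile normalisation and median centring moved no such count by over 1.5 times. With an array left out, the lone array of its group is assumed to vary like the other group. The cause of these shifts was not tested.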
